A study of Mus musculus with 8 samples.

Results

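The primary cilium is a single, non-motile antenna of the cell surface, and the genes described here encode the machinery that builds it and controls entry at its base. The 52 genes were chosen by name from the 49671 genes of the table: the Ift, Bbs, Tctn, Nphp and Dync2 families plus 22 named motors, adaptors, GTPases and transition zone proteins. The family was taken up because earlier results of these data had shown cilium genes at higher values in DNp63 luminal than in CD1 luminal cells. Those values are therefore given below as a description. Calls of genes in that comparison are counted beside the share called among all genes, and they support nothing. All 52 genes passed the filter on low values.

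Bulk RNA sequencing had been done on mammary epithelial cells of female mice of mixed genetic backgrounds, sorted as CD45-CD31-CD140a- cells and divided into a CD24+CD29low gate (luminal, 40000 cells) and a CD24+CD29high gate (basal, 5000 cells). Each gate was sampled in 2 libraries of CD1 mice and in 2 libraries of K8rtTA/TetOCre/Rosa26-DNp63-IRES-GFP mice, called DNp63 below, giving 4 groups and 8 libraries. In the DNp63 mice, doxycycline and the rtTA protein made from a keratin 8 promoter switch on Cre, which releases the p63 isoform DNp63 together with GFP. Keratin 8 is a luminal keratin and p63 is a transcription factor of basal epithelial cells. The DNp63 gates took GFP+ cells only, and the CD1 gates had no GFP criterion. Strain, doxycycline, GFP sorting and DNp63 thus differ together between the DNp63 and CD1 groups and cannot be told apart. The labels do not give the age or the doxycycline schedule of these mice, or say whether each library came from its own animal. The spread between CD1 libraries may therefore be technical. The DNp63 libraries of a gate differ in the X-linked RNA Xist, at 111346 and 36 in luminal and 60686 and 141 in basal cells. They are thus unlikely to be repeats of 1 cell sample.

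Intraflagellar transport moves cargo along the ciliary microtubules in trains. Kinesin-2 motors carry the trains, built from the IFT-B and IFT-A complexes, toward the tip, and the dynein-2 motor returns them. The BBSome exports membrane proteins, the transition zone at the base acts as the barrier of the organelle, and the GTPases Arl3, Arl6 and Arl13b control cargo loading and release. Mammary basal and luminal cells are known to differ in how often they carry a primary cilium. RFX transcription factors bind a palindrome called the X-box in the promoters of many cilium genes, and FOXJ1 drives the genes of motile cilia.

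Promoter letters are shown because many of these genes were high in 1 group together. Promoters came from RefSeq on GRCm38.p6, covering 250 bases before to 50 bases after each start. Of the 52 genes, 45 had 49 promoters in that table. The X-box was spelled as GTTNCC and GGNAAC with 2 bases between them, both strands being read. It was in 4 of 49 promoters (8.2%), against 0.45% of all 32851 promoters. A relaxed palindrome that includes the X-box, GTNNCC and GGNNAC with 2 bases between them, was in 11 of 49 (22.4%) against 1.88%. The 3 X-box promoters whose match lies before the start are printed as the 250 bases before the start, with the match in capitals.
Ttc26, chr6:38381274-38381523, plus strand: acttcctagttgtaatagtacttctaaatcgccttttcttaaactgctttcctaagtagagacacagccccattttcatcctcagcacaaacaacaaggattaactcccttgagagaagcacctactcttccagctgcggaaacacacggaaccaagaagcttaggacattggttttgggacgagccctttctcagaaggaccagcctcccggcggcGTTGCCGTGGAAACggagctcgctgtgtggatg
Bbs7, chr3:36613390-36613639, minus strand: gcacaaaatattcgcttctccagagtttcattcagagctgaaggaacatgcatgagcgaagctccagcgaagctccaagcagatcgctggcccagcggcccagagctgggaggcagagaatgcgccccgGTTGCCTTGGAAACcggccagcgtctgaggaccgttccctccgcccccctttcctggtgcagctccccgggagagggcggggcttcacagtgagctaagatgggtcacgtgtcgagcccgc
Mks1, chr11:87852965-87853214, plus strand: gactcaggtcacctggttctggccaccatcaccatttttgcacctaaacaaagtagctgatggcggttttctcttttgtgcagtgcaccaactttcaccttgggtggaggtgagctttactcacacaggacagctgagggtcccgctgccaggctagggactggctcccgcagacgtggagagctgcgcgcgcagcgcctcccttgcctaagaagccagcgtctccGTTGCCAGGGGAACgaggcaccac
The matches began at base -33 from the start in Ttc26, -121 in Bbs7 and -24 in Mks1. The other promoters with either palindrome are shown as 30 bases around the match, to compare the letters that vary. Ift22 held 2 relaxed matches.
Tctn1, chr5:122264411-122264440, minus strand: gcgctaggctgtgactGTTGCCCGGGCAAC
Ift57, chr16:49699199-49699228, plus strand: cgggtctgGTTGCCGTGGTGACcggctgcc
Ift22, chr5:136908079-136908108, plus strand: ctgtcaggGTTTCCTGGGCTACtgcgcagc
Ift22, chr5:136908109-136908138, plus strand: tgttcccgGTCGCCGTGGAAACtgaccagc
Tctn2, chr5:124598679-124598708, plus strand: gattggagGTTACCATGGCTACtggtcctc
Nphp4, chr4:152477903-152477932, plus strand: cggtgcccGTCTCCTAGGTAACgcgccagc
Bbs4, chr9:59353464-59353493, minus strand: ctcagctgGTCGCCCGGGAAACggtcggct
Bbs1, chr19:4906605-4906634, minus strand: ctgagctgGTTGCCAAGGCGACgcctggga
Wdr19, chr5:65199654-65199683, plus strand: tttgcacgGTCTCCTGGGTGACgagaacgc
Among these, Tctn1 has the full X-box and the other genes only the relaxed form. The single arm GTTGCC, which every printed X-box contains on the strand shown, was in 22 of 49 promoters (44.9%) against 12.51% of all. The forkhead motif GTAAACA was in 0 of 49 member promoters against 3.65% of all, in these 300 bases. A match is a match of letters and was not tested for binding.

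In luminal cells the summed values of the 52 genes were 20759 and 22227 in the CD1 libraries and 41201 and 51609 in the DNp63 libraries. Values are reads that the authors scaled to 20000000 per library, called scaled reads. In basal cells the sums were 21524 and 21830 for CD1 and 23361 and 26744 for DNp63, so the DNp63 luminal group alone stood high. Relative to CD1 luminal cells, 30 of the 52 genes were called higher in DNp63 luminal cells, where 2.46% of all 16900 tested genes were called higher. None was called lower by limma, where 1.89% of all genes were, with 1 member lower at an unadjusted p under 0.05 and 0 called by voom. A gene was called when its limma adjusted p was under 0.05. The median log2 difference of the members was 1.16 and that of all tested genes was -0.02, and 48 of 52 members were above 0 against 48% of all genes. These counts restate the pattern for which the family was chosen and nothing is read from them. Leaving out DNp63 luminal libraries left 1 library in a group, and calls were lost among the members and across all genes alike. Without the second DNp63 luminal library the median of the members was 0.98, and without the first it was 1.35. With neither second DNp63 library, an alternative added after the data were seen, the median was 0.99 and 46 of 52 members were above 0. That alternative was run because the 2 second DNp63 libraries stood apart in Xist, the noncoding RNA of the inactive X chromosome. Xist was listed at 36 and 141 in them and at 55545 to 111346 in the other 6, while the Y-linked genes looked up were at 4 or below in all 8.

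**Figure D1:**
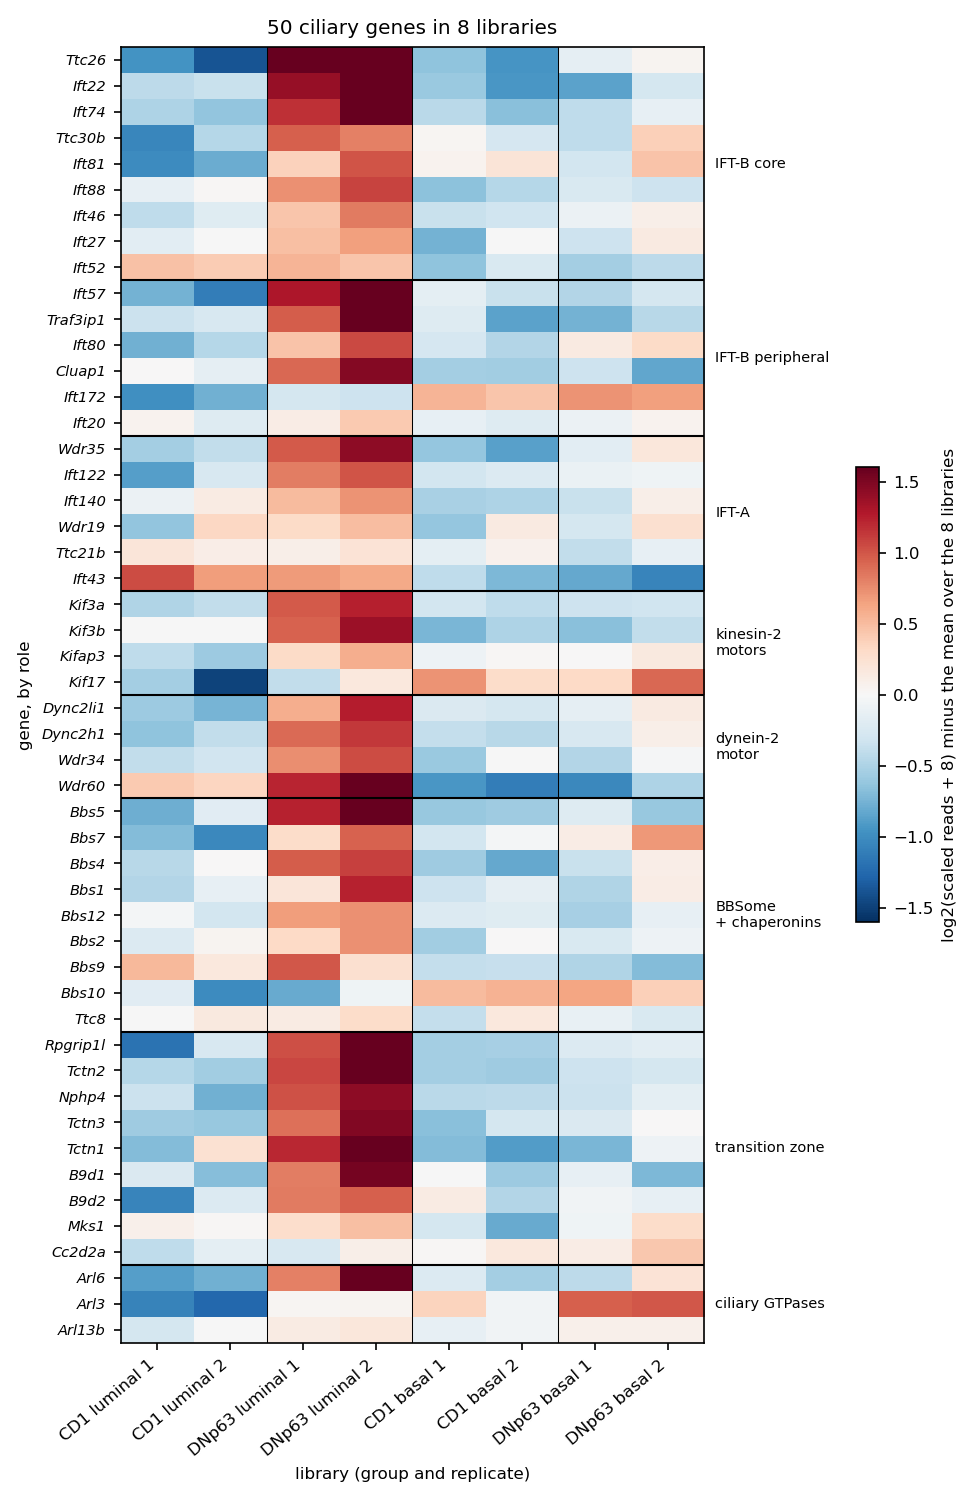
Values of 50 of the 52 genes in the 8 libraries, as log2(scaled reads + 8) minus the mean of each gene over the libraries, with rows ordered by role and colours saturating at 1.6. The 2 DNp63 luminal columns are red for most genes, while Ift172 and Arl3 are highest in basal columns and Ift43 is highest in luminal ones.

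The IFT-B core forms the body of the anterograde train. In DNp63 luminal cells 7 of its 9 genes were called higher, where 2.46% of all genes were. Counts by role describe the comparison that led to the family and rank nothing. Ttc26, an IFT-B subunit also called IFT56, had 139 and 101 scaled reads in CD1 luminal and 983 and 1343 in DNp63 luminal libraries, with 174 and 140 (CD1) and 249 and 286 (DNp63) in the basal gate. The DNp63 luminal libraries were far above the other 6, and the log2 difference from CD1 luminal was 3.11 ± 0.25 (SE), the greatest of the 52. Ift22, a Rab-like subunit, was at 199 and 208 in CD1 luminal and 719 and 1131 in DNp63 luminal cells, with 174 and 136 (CD1) and 144 and 218 (DNp63) in the basal gate, a luminal log2 difference of 2.02 ± 0.29. Ift74, which with Ift81 binds tubulin cargo, was at 298 and 271, then 961 and 1311, then 312 and 264, then 317 and 387, in the same order of groups, a difference of 1.86 ± 0.21. For Ift22 and Ift74 the 6 libraries outside DNp63 luminal overlapped or lay close together. At the other end of this role, Ift52, a scaffold subunit, was at 621 and 597 in CD1 luminal and 658 and 611 in DNp63 luminal cells, and these groups overlapped. Its log2 difference was -0.03.

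The peripheral IFT-B subunits link trains to motors and membranes. In DNp63 luminal cells 3 of 6 were called higher, where 2.46% of all genes were. Ift57, which contacts kinesin-2, was at 210 and 163 in CD1 luminal and 891 and 1307 in DNp63 luminal cells, with 321 and 280 (CD1) and 258 and 295 (DNp63) in the basal gate. DNp63 luminal libraries were the highest, the luminal log2 difference was 2.41 ± 0.24, and the 2 basal groups overlapped. Ift57 shares 7.9% of its exon bases with an opposite-strand gene, Gm15518, and no source used here gives the strand setting of the counting. Traf3ip1, the subunit IFT54, was at 334 and 356 in CD1 luminal and 839 and 1593 in DNp63 luminal cells, a difference of 1.64 ± 0.32. Ift80 was at 405 and 504 against 952 and 1444, a difference of 1.27 ± 0.22. Cluap1 shares 40.8% of its exon bases with other genes, so its 146 and 130 against 281 and 415 are uncertain, and it was not called. Ift20, which also works at the Golgi, was at 593 and 493 against 617 and 763, a difference of 0.25.

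IFT-A returns receptors and builds the retrograde train, and 2 of its 6 genes were called higher, where 2.46% of all genes were. Wdr35 was at 398 and 441 in CD1 luminal and 1152 and 1585 in DNp63 luminal cells, a log2 difference of 1.58 ± 0.21, and Ift122 was at 295 and 460 against 983 and 1120, a difference of 1.40 ± 0.22. Ift43, the smallest subunit of the complex, was higher in both luminal groups than in both basal groups. It was at 1256 and 964 in CD1 luminal and 977 and 920 in DNp63 luminal cells, with 454 and 364 (CD1) and 338 and 286 (DNp63) in the basal gate. Its DNp63 minus CD1 difference was -0.30 in the luminal gate, where the groups overlapped. Ttc21b was at 607 and 571 against 569 and 619, also overlapping.

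Among the motors of both directions of transport, 3 of 4 kinesin-2 genes and 4 of 4 dynein-2 genes were in the called group of that description. Of all genes, 2.46% were called higher. Kif3a, a motor subunit of heterotrimeric kinesin-2, was at 483 and 515 in CD1 luminal and 1344 and 1616 in DNp63 luminal cells, with 554 and 511 (CD1) and 540 and 542 (DNp63) in the basal gate. Its other 6 libraries lay between 483 and 554, and its luminal log2 difference was 1.46 ± 0.15. Its partner Kif3b was at 703 and 701 against 1358 and 1824 in the luminal gate, a difference of 1.07 ± 0.19, and the adaptor Kifap3 at 660 and 582 against 1083 and 1311, a difference of 0.85 ± 0.15. Kif17, the motor of the second, homodimeric kinesin-2, was at 57 and 26 against 64 and 98 and was not called. Dync2h1, the dynein-2 heavy chain, was at 1699 and 2027 in CD1 luminal and 4990 and 5854 in DNp63 luminal cells, with 2038 and 1957 (CD1) and 2234 and 2858 (DNp63) in the basal gate. That is a luminal difference of 1.45 ± 0.16, with both DNp63 luminal libraries above all others. The light intermediate chain Dync2li1 differed by 1.49 ± 0.26 and the intermediate chain gene Wdr34 by 1.15 ± 0.26. The other intermediate chain gene, Wdr60, was at 990 and 941 against 1738 and 2254.

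The BBSome carries membrane proteins out of the cilium. Of the 9 genes for it and its chaperonins, 2 were called higher in DNp63 luminal cells, where 2.46% of all genes were. Bbs5 was at 68 and 108 in CD1 luminal and 300 and 423 in DNp63 luminal cells, with 78 and 80 (CD1) and 106 and 78 (DNp63) in the basal gate, a luminal log2 difference of 1.87 ± 0.32. Bbs4 was at 227 and 312 against 617 and 673, a difference of 1.16 ± 0.25. Bbs9, a scaffold of the complex, was at 1500 and 1179 against 2090 and 1253, overlapping groups. The chaperonin-like gene Bbs10 was at 40 and 19 against 23 and 44, which is as few as 5 recovered reads in 1 library. Arl6, the GTPase that brings the BBSome to membranes, was at 93 and 101 in CD1 luminal and 317 and 638 in DNp63 luminal cells, a difference of 2.04 ± 0.37. Arl3, which releases lipid-anchored cargo, was at 125 and 108 against 275 and 278, a difference of 1.11 ± 0.21. Arl13b, the activator of Arl3, was at 1366 and 1653 against 1818 and 1879 and was not called.

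In the transition zone 7 of 11 genes were called higher, where 2.46% of all genes were. Rpgrip1l, a scaffold of the transition zone, was at 224 and 430 in CD1 luminal and 1063 and 1886 in DNp63 luminal cells, with 353 and 356 (CD1) and 443 and 460 (DNp63) in the basal gate. Both groups of luminal libraries were widely spread but did not overlap, and the log2 difference was 2.07 ± 0.34. Tctn2, a tectonic, was at 231 and 215 against 678 and 1030 in the luminal gate, a difference of 1.78 ± 0.23. For Tctn1, 25.5% of the exon bases overlap opposite-strand genes, so its 217 and 423 against 830 and 1123 are uncertain. Mks1 and Cc2d2a of the same protein module differed by only 0.25 and 0.11.

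**Figure D2:**
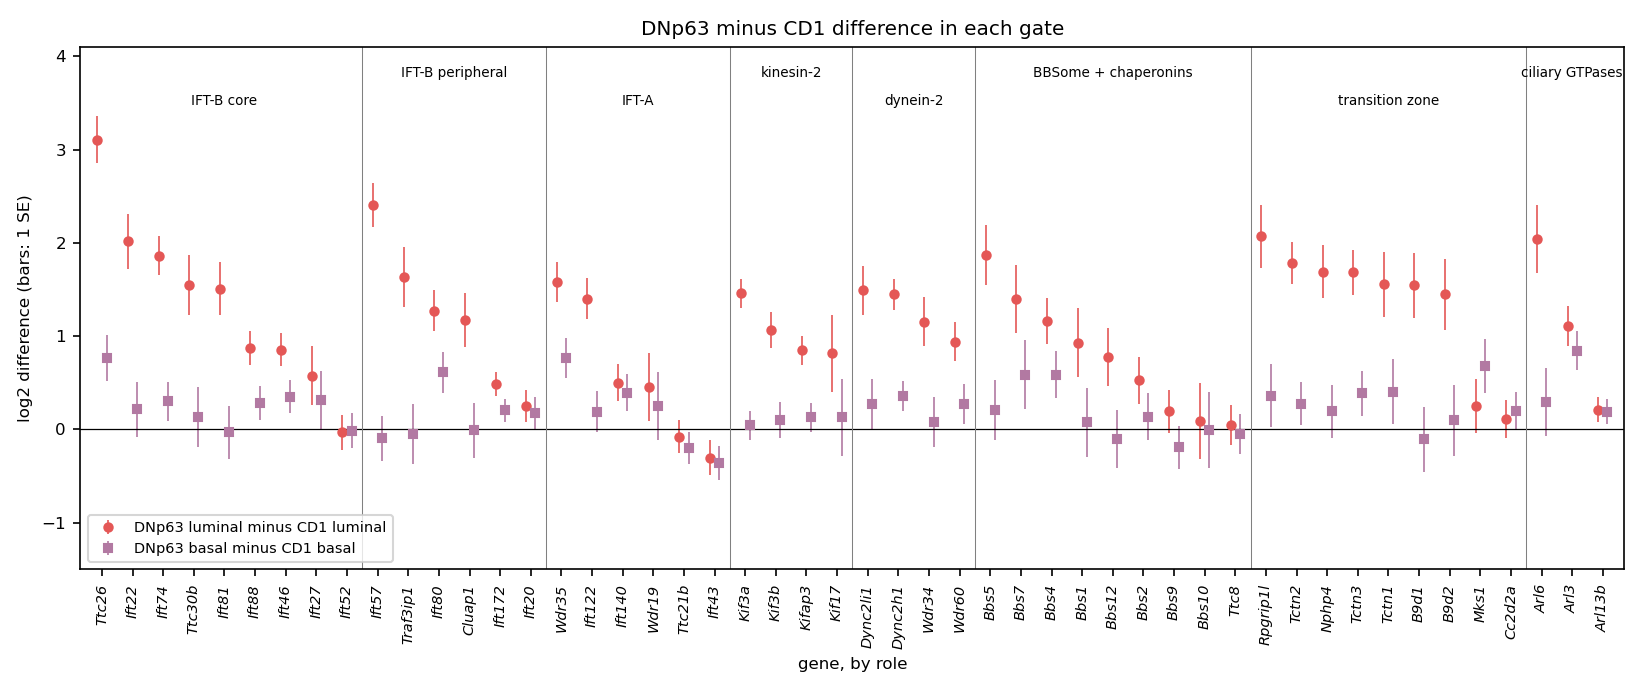
Log2 difference between DNp63 and CD1 cells for 50 of the 52 genes, ordered by role, in the luminal gate (circles) and the basal gate (squares), with bars of 1 standard error. Luminal values run from -0.30 for Ift43 to 3.11 for Ttc26, and basal values run from -0.36 for Ift43 to 0.85 for Arl3.

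Known regulators of cilium genes were read in the same libraries. Trp63 was at 61 and 45 in CD1 luminal, then 1297 and 1460 in DNp63 luminal libraries, and in the basal gate 5457 and 7079 (CD1) and 8088 and 8306 (DNp63). Both differences were in the direction the labels give, but the one in the basal gate was not called. Foxj1 was at 79 and 49 in CD1 luminal, then 2637 and 3314 in DNp63 luminal libraries, and in the basal gate 692 and 504 (CD1) and 317 and 266 (DNp63). Rfx2 was at 756 and 678, 1532 and 2023, 513 and 563, and 675 and 368 in the same order of groups. Rfx3 was at 1022 and 1227, 2013 and 2524, 742 and 843, and 797 and 827. Both Rfx genes were thus highest in the DNp63 luminal libraries, as Foxj1 was. Rfx1 was at 1298 and 1371 against 1177 and 1405 in the luminal gate, Rfx5 at 699 and 749 against 672 and 662, and Rfx7 at 1465 and 1493 against 1882 and 2062, and none of these was called there. Rfx4 was at 13 or below in every library.

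Multiciliated cells carry many motile cilia, and 20 of their markers were listed. Of these, 17 were in the table and 11 passed the filter. In DNp63 luminal against CD1 luminal cells 5 were called higher (45.5%), where 2.46% of all genes were, namely Foxj1, Spag6l, Rsph4a, Rsph1 and Dynlrb2. Rsph4a, Rsph1 and Dynlrb2 passed the filter only through the DNp63 luminal libraries, so their calls support nothing. Ccno (-0.65) and Myb (-0.25) lay below 0 and were not called. The summed values of the 17, Foxj1 included, were 8587 and 6669 in CD1 luminal and 13633 and 15366 in DNp63 luminal, with 5038 to 6539 (CD1) and 5086 to 5255 (DNp63) in the basal gate. Rsph4a, a radial spoke protein, was at 11 and 19 against 306 and 666, and Dynlrb2 at 0 and 0 against 125 and 192. The markers Mcidas, Sntn and Dnah5 were at 0 in all luminal libraries, and Gmnc was at 0 or 3. The part of these genes in the result was not tested. In bulk samples, more cells of a type and more RNA per cell cannot be told apart. The luminal markers fixed for the gates summed to 231349 and 262079 in CD1 luminal and 256288 and 261141 in DNp63 luminal cells, and the basal markers to 16107 to 20628 in those 4 libraries. Fibroblast markers were uneven, summing to 9155 and 44193 in CD1 luminal and 16994 and 9824 in DNp63 luminal libraries. Of these 8 markers 1 was called lower in DNp63 luminal cells, where 1.89% of all genes were, and their part was not tested.

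The basal gate gives a DNp63 against CD1 comparison in libraries that did not lead to the choice of the family. Those libraries may share animals with the luminal ones, which the labels do not say. The comparison is not a repeat of the luminal one. Trp63 was already at 5457 and 7079 in CD1 basal libraries, against 61 and 45 in CD1 luminal ones. None of the 52 genes was called there by limma, where 0.651% of all genes were called in either direction. The smallest adjusted p was 0.163 by limma, for Arl3, and voom on recovered reads also called 0. At an unadjusted limma p under 0.05 there were 7 genes, all of them higher in DNp63 basal cells, which is 13.5% of the members, where 5.4% of all genes were higher and 5.8% lower at that p. The median log2 difference of the members was 0.20 against 0.00 for all genes, and 40 of 52 were above 0 against 49.9% of all. Without the second DNp63 basal library the median was 0.08 with 34 of 52 above 0, and without the first it was 0.32 with 43 of 52 above 0.

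Single basal values show how small these differences were. Arl3 was at 348 and 260 in CD1 against 532 and 547 in DNp63 basal cells, groups that did not overlap, with a log2 difference of 0.85 (95% interval 0.36 to 1.33). Wdr35 was at 376 and 316 against 515 and 663, a difference of 0.77 (0.28 to 1.26). Ttc26 differed by 0.76 (0.20 to 1.33), beside 3.11 (2.54 to 3.67) in the luminal comparison that led to the family. The others included Ift80 (0.61), Bbs4 (0.59) and Mks1 (0.68). None of the 7 passed the adjusted threshold, with limma adjusted p-values from 0.163 to 0.431. Beside these values, 7 of the 10 luminal markers were called lower in DNp63 basal than CD1 basal cells, where 0.444% of all genes were. Their sums were 39444 and 35444 in CD1 against 15144 and 17003 in DNp63 basal cells. Fibroblast markers summed to 16809 and 46320 against 68930 and 92152, and 8 of 8 were above 0 with 0 called. Their part in the basal values was not tested.

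The CD1 libraries alone show how the family is divided between the gates without the transgene. This comparison shares the CD1 luminal libraries with the one that led to the family. In CD1 mice 6 of 52 genes were called higher in basal than luminal cells (11.5%), fewer than the 24.6% of all genes called higher. Another 5 were called lower (9.62%), where 19.7% of all genes were. The median difference of the members was 0.03, and 41 of 52 genes were not called in either direction.

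Ift172, the subunit that turns trains around at the ciliary tip, was at 905 and 1049 in CD1 luminal and 2628 and 2452 in CD1 basal cells. The groups lay far apart, with a log2 difference of 1.37 ± 0.13 (limma adjusted p = 6.00e-05). Arl3 was higher in basal cells by 1.31 ± 0.21 (limma adjusted p = 0.00132). Kif17 was at 57 and 26 against 147 and 108, higher by 1.51 ± 0.41 (limma adjusted p = 0.0166). Ift81 was at 369 and 430 against 783 and 867, higher by 1.03 ± 0.28 (limma adjusted p = 0.0174). Kifap3 was higher by 0.46 and Ift57 by 0.67, with limma adjusted p-values of 0.0369 and 0.0457.

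In the opposite direction, Ift43 was at 1256 and 964 in CD1 luminal and 454 and 364 in CD1 basal cells, a log2 difference of -1.42 ± 0.19 (limma adjusted p = 0.00041). Wdr60 was at 990 and 941 against 385 and 340, a difference of -1.40 ± 0.21 (limma adjusted p = 0.000941), while the other dynein-2 genes were not called. Ift52 was at 621 and 597 against 284 and 376, a difference of -0.88 ± 0.19 (limma adjusted p = 0.00529). Kif3b differed by -0.61 and Bbs9 by -0.72, both lower in basal cells, with limma adjusted p-values of 0.03 and 0.0333. Within IFT-B, Ift172 and Ift81 were called higher and Ift52 lower in basal cells. In heterotrimeric kinesin-2, Kifap3 was called higher and Kif3b lower. The calls of Ift172, Arl3, Ift43, Wdr60 and Ift52 held in all 19 alternatives run. Those of Ift57 held in 8, Kifap3 in 10, Bbs9 in 13, Kif3b in 14, and Ift81 and Kif17 in 17 of 19. Leaving out either CD1 basal library left 3 genes called higher and 3 called lower.

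The sort took CD31- and CD140a- cells, which should leave out endothelial cells and many fibroblasts, but the basal gate held markers of other cells at higher values. Pecam1, the gene of CD31, was at 419 and 571 in CD1 luminal against 8163 and 7669 in CD1 basal libraries. Endothelial markers summed to 4658 and 3763 in CD1 luminal and 62582 and 60340 in CD1 basal libraries, with 11 of 12 called higher. For pericyte markers the sums were 5882 and 5572 against 19378 and 24119 with 7 of 8 called, and for adipocyte markers 793 and 2359 against 25749 and 32414 with 6 of 6 called. No marker of these 3 lists was at 0 in all libraries of a group, and their part in the gate differences was not tested. The gates themselves matched their labels, with 10 of 10 basal markers called higher and 10 of 10 luminal markers called lower in CD1 basal cells.

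In DNp63 mice the same gate comparison looked different. It includes the DNp63 luminal libraries whose high values led to the family, so it is a description. Here 31 of 52 genes were called lower in basal cells (59.6%), where 21.3% of all genes were, and 3 were called higher, where 26.7% of all genes were. The median was -0.92. Ift22 differed by -2.19 ± 0.29 and Wdr60, at 359 and 523 in DNp63 basal against 1738 and 2254 in DNp63 luminal cells, by -2.06 ± 0.21. Among the 3 called higher in DNp63 basal cells were Ift172 (1.09) and Arl3 (1.05). With neither second DNp63 library, the median of the members was -0.95. Endothelial markers differed here too, at 3928 and 3606 in DNp63 luminal and 58845 and 43679 in DNp63 basal libraries.

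The CD1 and DNp63 gate comparisons share no library, so their calls can be set side by side. Arl3 and Ift172 were called higher in basal cells in both, which is 33.3% of the CD1 and 66.7% of the DNp63 list. Among all genes, 3520 were called higher in both, of 4164 in the CD1 list and 4511 in the DNp63 list. Bbs9, Ift43, Ift52, Kif3b and Wdr60 were called lower in both, which is 5 of 5 and 5 of 31, or 100% and 16.1%. Among all genes 2486 were, 74.8% and 69.1% of the lists. Ift57 was called higher in CD1 basal and lower in DNp63 basal cells. Across the 52 genes the gate differences in the 2 kinds of mice had a Pearson correlation of 0.57, and across all 16900 genes 0.90, given as a description since genes of a library share its depth and cells.

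**Figure D3:**
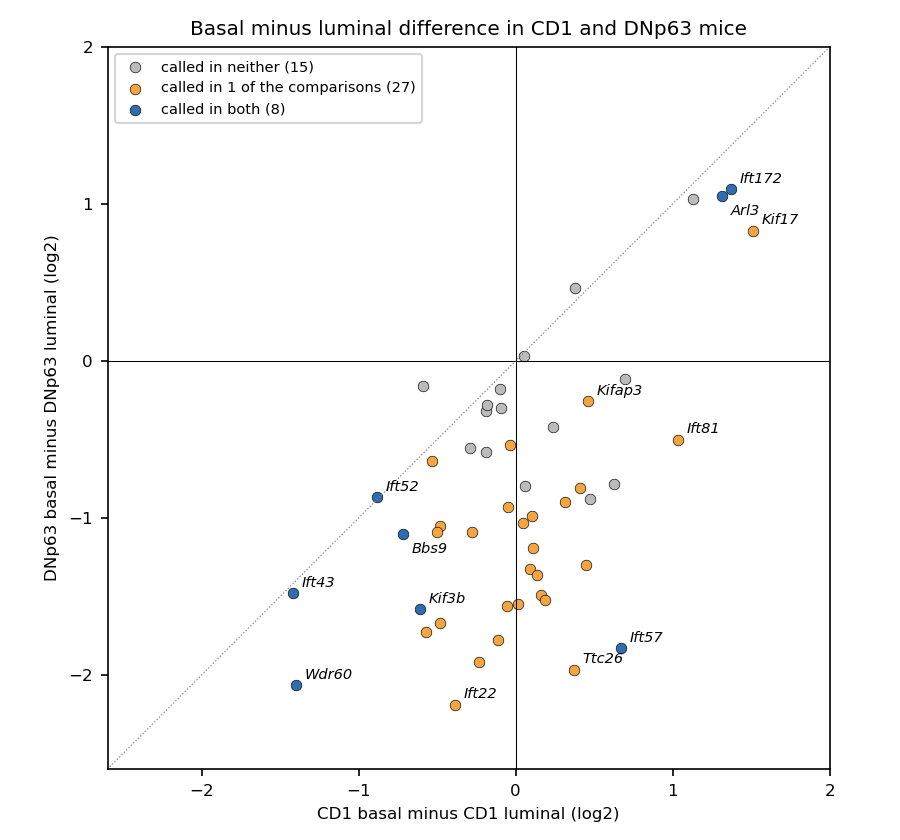
Basal minus luminal log2 difference of 50 of the 52 genes in CD1 mice (horizontal axis) and DNp63 mice (vertical axis), with a dotted line of equality and colours for the number of comparisons in which a gene was called. Most points lie below the line, and Ift43 and Ift52 lie near it.

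**Figure D4:**
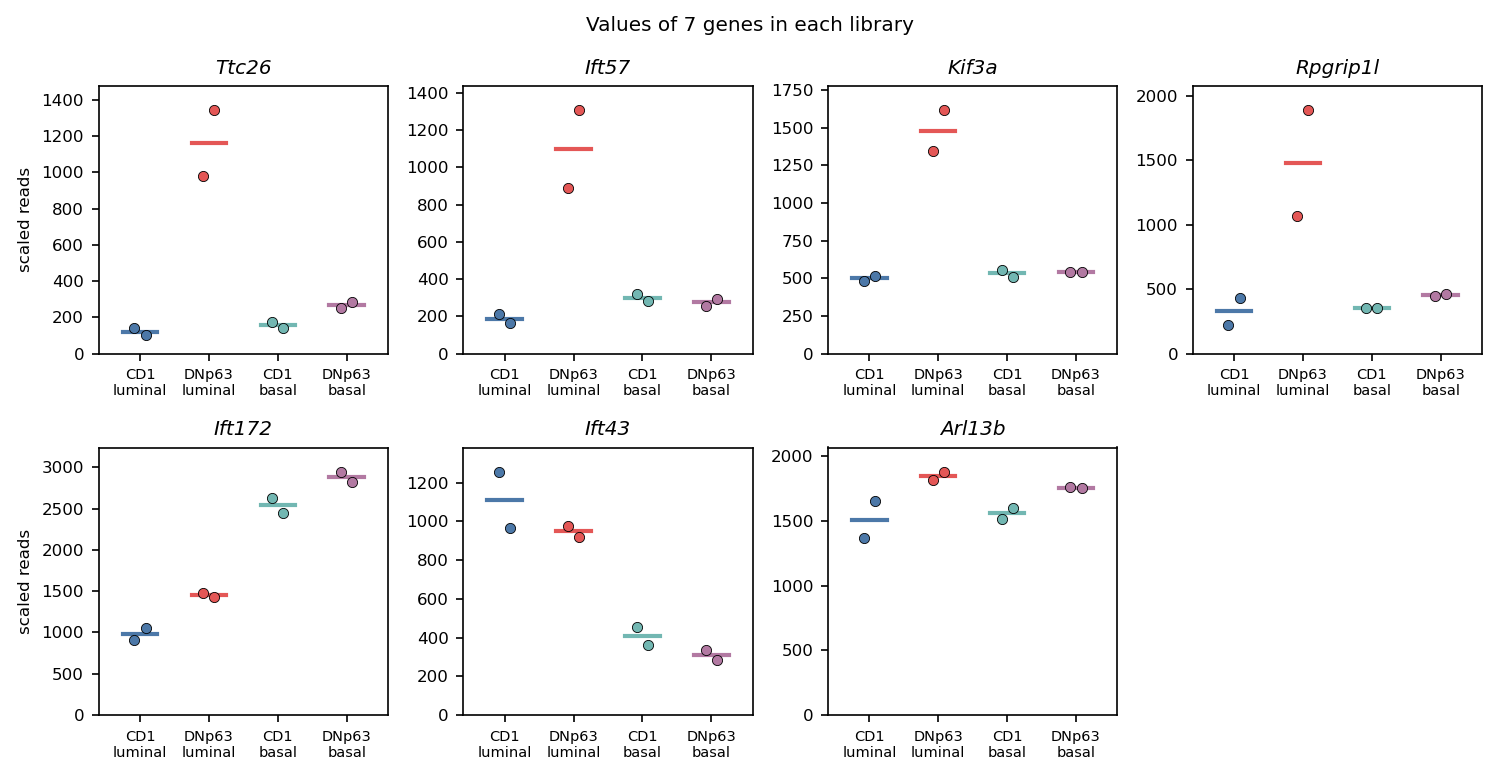
Scaled reads of 7 genes in each library (points) with group means (lines), on linear axes that start at 0. Ttc26, Ift57, Kif3a and Rpgrip1l are high in the DNp63 luminal group alone, Ift172 is higher in both basal groups, Ift43 is higher in both luminal groups and Arl13b varies little.

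Per kilobase of exon, levels can be compared between genes. The median level of the 52 genes was 62 scaled reads per kb in CD1 luminal, 177.4 in DNp63 luminal, 60.2 in CD1 basal and 80.9 in DNp63 basal cells. Ift43 had the highest level per kb of the family in both luminal groups (672.3 in CD1 and 574.5 in DNp63), and Ift172 in both basal groups (383.9 and 436.1). The 4 dynein-2 genes had levels within 1.4-fold of each other in CD1 luminal and 1.3-fold in DNp63 luminal cells. In CD1 basal and DNp63 basal cells they spread over 2.7-fold and 2.9-fold, with Wdr60 the lowest at 44.7 and 54.4 per kb. Among the 15 IFT-B genes the highest level was 13.9 times the lowest in CD1 luminal cells (Ift20 at 356.1 and Ttc26 at 25.6) and 5.3 times in DNp63 luminal cells (Ift20 at 452.4 and Ift27 at 85). The ratios in CD1 basal and DNp63 basal cells were 11.4 and 10.4. Within kinesin-2, Kif17 was the lowest per kb in all 4 groups, between 9 and 30.6. Exon length was taken from all annotated transcripts, and which of them each cell makes was not measured.

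**Figure D5:**
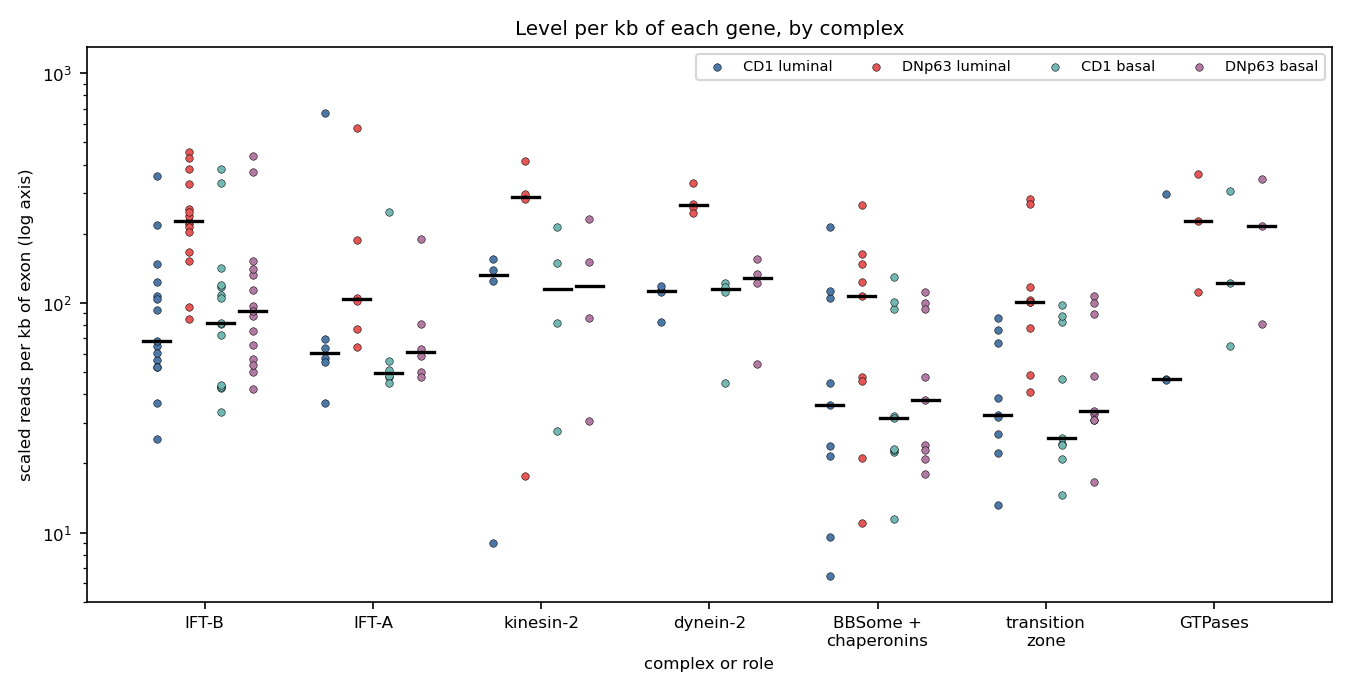
Mean level of 50 of the 52 genes per kb of exon in scaled reads, on a log axis, by complex or role and group, with a black line at the median of the genes in each. The dynein-2 points of both luminal groups lie close together, and 1 gene, Wdr60, lies below the rest in the basal groups.

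Replicates of the DNp63 groups differed in the family as a whole. Of the 52 genes, 47 were higher in the second than in the first DNp63 luminal library, with a median log2 gap of 0.36, where 49.1% of all genes were higher. In the DNp63 basal libraries 42 of 52 were higher in the second, with a median gap of 0.22, where 51.6% of all genes were. The CD1 counts were 28 of 52 in luminal and 27 of 52 in basal libraries, where 53.8% and 50.3% of all genes were higher. The second DNp63 libraries are the ones with almost no Xist, and whether the 2 facts are linked was not tested.

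Of the 52 genes, 10 start within 1000 bases of the start of a gene on the opposite strand (19.2%), compared with 1588 of 21951 protein-coding genes (7.2%). The neighbour was not called in DNp63 luminal against CD1 luminal cells in any of the 10 pairs. Of all genes, 2.46% were called higher there and 1.89% lower, so the lack of calls in 10 genes says little. Rpgrip1l, 263 bases from Fto, differed by 2.07, while Fto, at 2146 and 2201 in CD1 luminal and 2351 and 2282 in DNp63 luminal cells, differed by 0.00. Dync2h1, 74 bases from Dcun1d5, differed by 1.45 and its neighbour by 0.02. Ift46, 63 bases from Arcn1, differed by 0.86 and Arcn1 by -0.18. The exceptions in size were Sfxn2 beside Arl3, at 61 and 19 against 123 and 153 (1.67), Mbd4 beside Ift122 (0.92) and Smc4 beside Ift80 (0.71). By promoter letters, the 11 genes with a relaxed X-box had a median luminal difference of 1.56 with 7 called higher. The 34 without it had 0.86 with 17 called, and the ranges overlapped, from 0.25 to 3.11 with it and from -0.30 to 2.07 without it. These differences come from the comparison that led to the family, and a link between motif and difference was not tested.

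Of 52 further ciliary genes listed outside the family, such as signalling receptors, ciliopathy proteins and Rab regulators, 51 were tested. In DNp63 luminal against CD1 luminal cells 12 were called higher (23.5%) and 0 lower, with a median of 0.46. Of all genes, 2.46% were called higher there and 1.89% lower. Rabl2, a GTPase that recruits IFT trains to the ciliary base, was at 164 and 152 against 569 and 814 (1.97 ± 0.23). Tmem67, a transition zone receptor, was at 341 and 356 against 1130 and 1550 (1.81 ± 0.21). In the basal gate 0 of 51 were called between DNp63 and CD1 cells, where 0.651% of all genes were, with 0.06 as the median. At an unadjusted limma p under 0.05, 2 were higher and 1 lower there, where 5.4% of all genes were higher and 5.8% lower.

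Between the CD1 gates 8 of the 51 were called higher in basal cells (15.7%) and 5 lower (9.8%). Both shares are below those of all genes, 24.6% higher and 19.7% lower. Gpr161, a ciliary receptor that restrains Hedgehog signalling, was at 64 and 67 in CD1 luminal and 490 and 531 in CD1 basal cells (2.82 ± 0.32, limma adjusted p = 0.000198). Kif7, a kinesin of the ciliary tip in the same pathway, was at 32 and 23 against 152 and 120 (2.03 ± 0.31, limma adjusted p = 0.000908). Rab3ip, the exchange factor Rabin8 that starts ciliary membrane growth, was at 1242 and 1445 against 380 and 404 (-1.75 ± 0.17, limma adjusted p = 8.32e-05). Tmem107, another transition zone protein, differed by -0.96 ± 0.25 (limma adjusted p = 0.0148). In DNp63 mice 4 were called higher in basal cells (7.84%), where 26.7% of all genes were, and 21 lower (41.2%), where 21.3% were. Among them were Gpr161 (2.67), Anks6 (2.28), Rpgr (-2.34) and Lztfl1 (-2.04).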

How the data were processed

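RNA-seq of 8 sorted mammary cell libraries was used. Per the submitters' processing notes, the authors aligned reads with STAR and counted them with HTSeq on GRCm38 (mm10). Tool versions, annotation and strandedness were "not given in the sources used here". Deposited values are a score: read counts that the authors scaled to 20000000 per library, as the labels' table name and the values show, and rounded up to whole numbers. Column sums ran from 20006569 to 20013862. In each library low values were multiples of 1 step (2.7752 to 4.8344), the worth of 1 read, and 99.7% to 99.89% of values matched whole reads within that rounding, against 20.7% to 36.0% by chance. Recovered depth was 4136971 to 7206700 reads, and the median member had 67 to 240 reads per library.

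Because the values are scaled, no count model was the main test. TMM factors (trims 30% and 5%) were applied, and log2(value + 8) was fitted with limma 3.58.1 in R 4.3.3, with 4 group means and an intensity trend. Fold changes are on that scale, which understates low genes. The filter, 40 or more in at least 2 libraries, kept 16900 genes. Two-sided p-values were adjusted by Benjamini-Hochberg over all of them, and 0.05 was the threshold. The fit had 4 residual and 4.631 prior degrees of freedom, and was tested on simulated data.

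The members, gene lists, roles, marker lists and motifs were chosen with earlier results of these data known. Every member could be named with its levels. Differences with errors were given for up to 3 called members per role with the largest difference, or 2 per direction for other ciliary genes, and members at the ends of a range or just under a threshold were chosen after their values were seen. Positions and exon lengths came from GENCODE M21, where 49326 of 49671 genes were found. Promoters came from RefSeq on GRCm38.p6. Of the members, 7 had no promoter there. Ttc30b has near-identical paralogs, so its reads are uncertain. The values of 2 members are not reported here by name, and counts and medians include them.

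Alternatives were pseudocounts of 2 and 32, no filter, a filter of 100, no further scaling, median-of-ratios size factors, voom on recovered reads, only the groups compared, a replicate block, and each library left out. A block within each kind of mouse and leaving out both second DNp63 libraries were added after the data were seen.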

Additional observations from a re-analysis of the deposited data

Results flagged for a closer look

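For 3 genes the DNp63 minus CD1 difference itself differed between the gates. The interaction, meaning the basal-gate difference minus the luminal-gate difference, was called lower for 3 of 52 members by limma, where 0.201% of all genes were called lower. It contains the luminal comparison for which the family was chosen, so the values are a description. Ift57 had an interaction of -2.50 ± 0.33, from a luminal difference of 2.41 and a basal one of -0.10. Ttc26 had -2.34 ± 0.35, from 3.11 and 0.76. Kif3a had -1.42 ± 0.22, from 1.46 and 0.04. Limma adjusted p-values were 0.039 to 0.0481. Of 18 alternatives, the call of Ift57 held in 9 and those of Ttc26 and Kif3a in 8. With a replicate block within each kind of mouse, added after the data were seen, 14 members were called lower, among them these 3. Calls over all genes in either direction rose as well under that block, to 462 from 48 in the main fit. Without either DNp63 luminal library, or without any 1 of the 4 basal libraries, none of the 3 was called. At an unadjusted limma p under 0.05, 26 members had a lower interaction and 1 a higher one, 51.9% in all against 10.5% of all genes.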

How the results depend on the processing

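The design has 2 libraries a group, and 19 alternatives were run for comparisons of 2 groups. Counts of called members moved by over 1.5 times as follows. For DNp63 luminal above CD1 luminal, 30 became 11 with only the groups compared, 0 with neither second DNp63 library, and 6 to 27 leaving out 1 library. For the interaction, 3 became 1 at a pseudocount of 2, 0 with no filter, 0 with voom, 0 with neither second DNp63 library, and 0 to 4 leaving out 1 library. In CD1 mice, the 6 called higher in basal cells ranged from 3 to 5 and the 5 called lower from 3 to 5 leaving out 1 library, and the latter were 3 with no filter. In DNp63 mice, the 31 called lower in basal cells fell with neither second DNp63 library, as did the calls over all genes. Fewer libraries or more genes tested are part of these alternatives, and other causes were not tested.

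Replicate numbers are shared by the groups, but with fewer than 3 pairs of libraries per comparison the main fit did not use pairing. The labels do not say whether same-numbered libraries of the gates came from the same animals. Both second DNp63 libraries had almost no Xist, so shared animals remain possible, and the main fit ignores that. Deviations of same-numbered libraries correlated at 0.34 between the CD1 gates and 0.27 between the DNp63 gates, and at -0.01 to 0.04 otherwise. With a replicate block, 30 members were again called in the luminal comparison. With a block within each kind of mouse, 34 were called higher and 1 lower there, 1 was called higher in the basal comparison, and the interaction had 14. Over all genes, that block called 1652, 622 and 462 in these comparisons, against 736, 110 and 48 in the main fit.

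Named genes kept their direction in all alternatives. Calls were lost in 72 of 399 cases for DNp63 luminal against CD1 luminal, 35 of 209 between the CD1 gates, 15 of 418 between the DNp63 gates and 29 of 54 for the interaction. Without further scaling the median of all genes moved by -0.104 between the DNp63 gates and by -0.102 for the interaction. With as few as 5 reads for a member, small differences were not detectable.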
